A study of Mus musculus with 8 samples.

Results

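Cbr2 and 4 enzymes named beside it, Dcxr, Cbr1, Cbr3 and Cbr4, were followed embryo by embryo in lungs of mouse embryos at embryonic day 14.5. They are 5 of the 22180 genes that the array measured. The members were the genes with the symbols Cbr1 to Cbr4, together with Dcxr, which lies next to Cbr2. A gene with several probe sets was represented by the one with the highest mean over the 8 arrays. Cbr2 was chosen by its measured difference between the genotypes, among the largest in the table, so that difference is described here without a test, and the other members were chosen by name with those results known.

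The mutant group held 4 lungs of genotype Shh-cre:Ezh2-flox/flox, mutants 1 and 2 from litter 3 and mutants 3 and 4 from litter 4. The control group held 4 lungs of genotype Shh-cre, controls 1 and 2 from litter 1 and controls 3 and 4 from litter 2. All embryos had a mixed C57BL/6 x 129S6 background and all carried the Cre. Shh is active in the lung epithelium, so the cross was made to remove Ezh2, the histone methyltransferase of the Polycomb complex PRC2, from epithelial cells and to leave it in the others. Whole lungs were measured, and in such samples a change in the number of cells of a type and a change in RNA per cell cannot be told apart. Ezh2 itself had log2 values of 11.80, 11.80, 11.75 and 11.77 in mutants 1 to 4, against 11.84, 11.93, 11.83 and 11.89 in controls 1 to 4. All mutants lay below all controls, but the difference of −0.09 ± 0.05 (SE) was small and did not pass (limma, adjusted p = 0.652), so the array gives only a weak check of the genotype labels.

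Carbonyl reductases reduce aldehydes, ketones and quinones with NADPH. The members belong to the short-chain dehydrogenases/reductases, a large enzyme superfamily with many substrates. In mouse, Cbr2 is the lung carbonyl reductase, a mitochondrial enzyme best known from the club cells of the airway, the secretory cells that metabolise foreign compounds. Dcxr encodes dicarbonyl/L-xylulose reductase, which acts in the glucuronate-xylulose pathway. Cbr1 encodes a broad cytosolic reductase of quinones and prostaglandins, Cbr3 its close relative, and Cbr4 a mitochondrial reductase that works in fatty acid synthesis.

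The starts of Cbr2 and Dcxr are shown because the report sets these neighbours side by side, and those of Cbr1 and Cbr3 because they are the other neighbouring members. The sequences run from 250 bases before to 50 bases after the annotated start, 5′ to 3′ on the gene's strand, from RefSeq on GRCm38.p6, with CG dinucleotides in capitals.
Cbr2 (chr11:120731972-120732271, minus strand): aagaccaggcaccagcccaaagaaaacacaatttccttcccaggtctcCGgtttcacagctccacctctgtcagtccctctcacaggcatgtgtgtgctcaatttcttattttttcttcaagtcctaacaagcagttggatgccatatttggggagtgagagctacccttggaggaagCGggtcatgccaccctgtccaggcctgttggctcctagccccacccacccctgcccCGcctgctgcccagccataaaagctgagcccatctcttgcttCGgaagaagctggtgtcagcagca
Dcxr (chr11:120727235-120727534, minus strand): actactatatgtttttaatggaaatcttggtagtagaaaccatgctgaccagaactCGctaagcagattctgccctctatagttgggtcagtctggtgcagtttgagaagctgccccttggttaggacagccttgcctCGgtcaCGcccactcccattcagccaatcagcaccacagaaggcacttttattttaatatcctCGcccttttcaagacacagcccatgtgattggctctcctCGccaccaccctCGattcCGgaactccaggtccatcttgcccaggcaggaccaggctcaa
Cbr1 (chr16:93607587-93607886, plus strand): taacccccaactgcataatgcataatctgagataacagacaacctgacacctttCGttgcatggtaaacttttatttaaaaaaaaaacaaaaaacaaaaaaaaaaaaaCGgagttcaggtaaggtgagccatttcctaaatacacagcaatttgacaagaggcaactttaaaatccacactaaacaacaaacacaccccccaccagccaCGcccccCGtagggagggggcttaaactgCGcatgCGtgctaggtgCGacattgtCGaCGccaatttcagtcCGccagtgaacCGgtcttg
Cbr3 (chr16:93682969-93683268, plus strand): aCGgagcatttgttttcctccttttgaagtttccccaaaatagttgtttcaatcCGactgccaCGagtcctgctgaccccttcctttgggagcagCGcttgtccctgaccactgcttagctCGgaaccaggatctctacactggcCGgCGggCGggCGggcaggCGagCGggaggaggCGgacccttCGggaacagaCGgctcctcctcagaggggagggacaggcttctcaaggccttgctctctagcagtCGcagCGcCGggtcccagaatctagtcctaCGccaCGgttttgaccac

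The Cbr2 window held 4 CG dinucleotides and the Dcxr window 7, against a median of 7 in 32851 promoter windows of the same length. Of those windows, 38.0% held at most 4. Cbr1 had 11 and Cbr3 had 19, a count that 28.1% of windows reached, and the Cbr4 window, not printed, had 6. The letters CCAAT, searched on both strands, were found at 2 positions in the Dcxr window and 1 in the Cbr1 window, and at 0 in those of Cbr2, Cbr3 and Cbr4, while 37.4% of windows held them. TGACNNNGC, the core of the antioxidant response element, and TATAAA were found in 0 of the 5 windows on either strand, against 12.4% and 13.6% of all windows. These counts describe the letters of the windows. The motifs were chosen with the array results of these genes known.

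The array values are log2 expression per probe set, made by the authors with RMA, and a difference of 1 is a doubling. Cbr2 had log2 values of 10.17, 9.88, 10.07 and 10.01 in mutants 1 to 4, against 7.99, 7.71, 7.71 and 7.70 in controls 1 to 4. Every mutant lay above every control, with a gap of 1.89 between the lowest mutant and the highest control. The means were 10.03 ± 0.12 in mutants and 7.78 ± 0.14 in controls (SD, n = 4 each). The estimated difference was 2.26 ± 0.09 (SE) on the log2 scale, a 4.78-fold higher level in mutant lungs.

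The Cbr2 difference was alike in both mutant litters. Litters 3 and 4 averaged 10.02 and 10.04, and the control litters 1 and 2 averaged 7.85 and 7.71. Measured from the control mean, the 4 mutants stood higher by 2.39, 2.10, 2.29 and 2.24. The spread of the gene was the same in both genotypes, with a range of 0.29 over the 4 mutants and of 0.29 over the 4 controls. Control 1 stood above its 3 fellow controls, whose mean was 7.71. By the level of Xist, which is transcribed from the inactive X chromosome, mutant 3, control 1 and control 2 were low (6.42, 6.74 and 6.37) and the other 5 embryos high (12.61 or above). Mutant 3, at 10.07 for Cbr2, lay within the range of the other mutants.

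**Figure D1:**
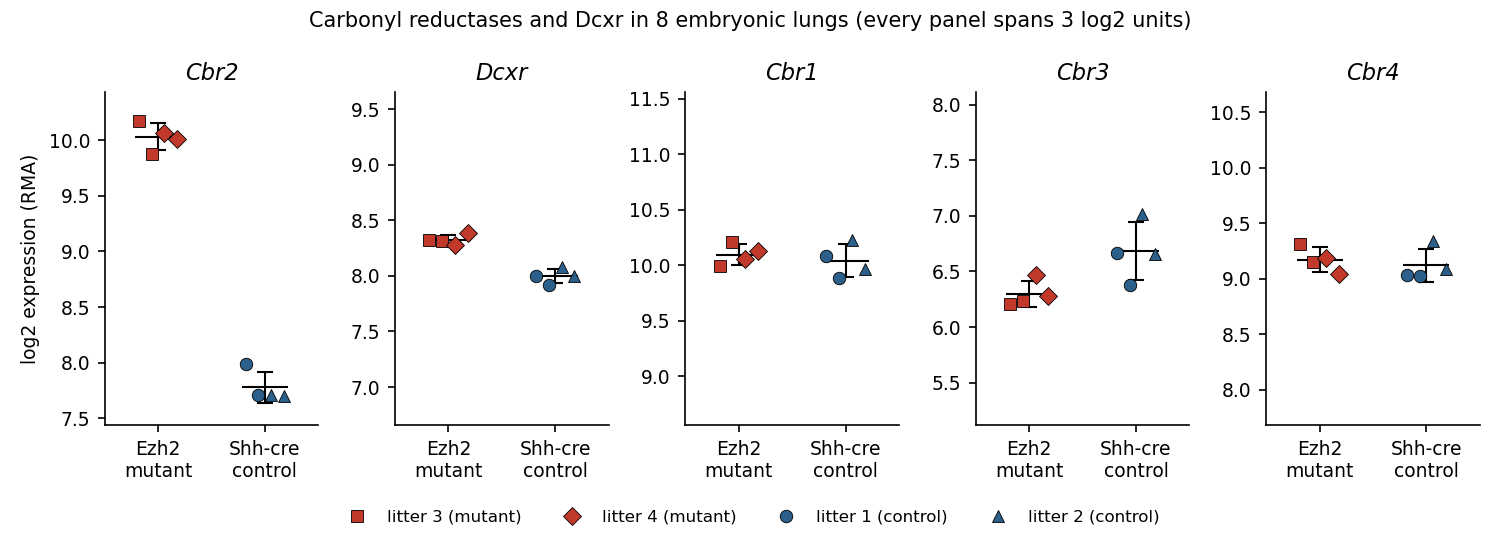
Log2 expression (RMA) of Cbr2, Dcxr, Cbr1, Cbr3 and Cbr4 in each of the 4 mutant and 4 control lungs, 1 panel per gene, each spanning 3 log2 units. Symbols mark litters, and bars give mean ± SD. Groups are separate for Cbr2 and, by a smaller gap, Dcxr, and they overlap for Cbr1, Cbr3 and Cbr4.

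Dcxr rose slightly in mutant lungs. Its log2 values were 8.32, 8.31, 8.28 and 8.39 in mutants 1 to 4 and 8.0, 7.92, 8.08 and 8.0 in controls 1 to 4. The groups did not overlap, and the gap between them was 0.20. The means were 8.32 ± 0.05 in mutants and 8.0 ± 0.07 in controls (SD, n = 4 each), a log2 difference of 0.32 ± 0.06 (SE) or 1.25-fold. In the limma fit across the 22180 genes, with litter as a random effect, the Benjamini-Hochberg adjusted p of Dcxr was 0.034. In that fit 0.604% of genes were called higher and 0.248% lower at an adjusted p of 0.05, 0.852% in either direction, and mutants were higher without overlap for 4.48% of genes and lower without overlap for 3.6%.

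The call of Dcxr depended on the treatment of litters and on single embryos. It passed in 12 of 24 alternative settings, with a positive difference of 0.28 to 0.36 in all 24. With the littermates averaged the adjusted p was 0.189 by limma, and the call was also lost when control 1, 2 or 4 was left out (0.0571, 0.0851 and 0.152 by limma) or mutant 1 or 4 (0.0807 and 0.144 by limma). With the arrays centred on their medians it was 0.0554 by limma.

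Within each mutant, Cbr2 stood far more above its control mean than Dcxr did. Cbr2 was chosen for its large difference, so that order was largely fixed by the choice. The excess over the control mean of Dcxr was 0.31, 0.30, 0.28 and 0.39 in mutants 1 to 4. The difference between both genes' excesses was 1.80 to 2.08 over the 4 mutants, and 1.93 for the group estimates. The mutant with the highest Dcxr value was mutant 4 and the mutant with the highest Cbr2 value was mutant 1. Both genes lie on the minus strand of chromosome 11, in adjacent places in RefSeq. Whether the probes of either gene also catch transcripts of the other was not tested.

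Cbr3 had lower values in mutants but did not pass the test. Its log2 values were 6.21, 6.23, 6.47 and 6.28 in mutants 1 to 4, against 6.67, 6.38, 7.02 and 6.66 in controls 1 to 4. Control 2 lay below mutant 3, so the groups overlapped. The log2 difference was −0.38 ± 0.13 (SE; limma, adjusted p = 0.306). A two-sided exact permutation test of the 4 mutants against the 4 controls gave an unadjusted p of 0.0571, with littermates taken as independent. The smallest p this test can give is 0.0286. The same permutation test gave an unadjusted p of 0.0286 for Dcxr and of 0.6 for both Cbr1 and Cbr4. Only 1.62% of all genes had a larger absolute difference. The difference was negative in all 23 alternatives that held the gene, from −0.60 to −0.23, and passed in 0 of them. The value was −0.23 without litter 2 and −0.60 in the 5 embryos with a high Xist value. The controls also differed by litter for Cbr3, averaging 6.53 in litter 1 and 6.84 in litter 2. Both litter 1 controls had a low Xist value and both litter 2 controls a high one. Litter and Xist level therefore cannot be told apart in the controls.

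The Cbr1 difference lay within the spread of the embryos. Its main probe set gave 9.99, 10.21, 10.06 and 10.13 in mutants 1 to 4 and 10.08, 9.89, 10.23 and 9.97 in controls 1 to 4. The values of the genotypes interleaved, and the log2 difference was 0.06 ± 0.09 (SE; limma, adjusted p = 0.888). The second probe set of Cbr1 gave a difference of −0.04. It ran from 9.07 to 9.14 in mutants and from 9.09 to 9.31 in controls.

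The Cbr4 difference also lay within the spread of the embryos. It had log2 values of 9.31, 9.15, 9.19 and 9.04 in mutants 1 to 4, against 9.03, 9.02, 9.34 and 9.09 in controls 1 to 4. The highest value was that of control 3 and the lowest that of control 2, so the controls enclosed all mutants. The log2 difference was 0.05 ± 0.09 (SE; limma, adjusted p = 0.906). Of all genes, 55.8% had a larger absolute difference than Cbr1 and 60.3% a larger one than Cbr4. Differences the size of these standard errors were not detectable with 4 embryos a group.

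Among the 10 nearest tested genes on each side of Cbr2 along chromosome 11, 2 of 20 rose, 0 fell and 18 did not pass. Of all genes 0.604% rose and 0.248% fell. Dcxr was the nearest on its side, and it was a member chosen by name with its result known. The count of 2 fell to 0 in some alternatives, such as littermates averaged, litter 1 left out or litter 4 left out. The other gene that rose was Notum, 6 places from Cbr2 on the same side, which encodes a secreted deacylase that inactivates WNT proteins. Its log2 values were 7.29, 7.45, 7.40 and 7.49 in mutants 1 to 4, against 7.03, 7.04, 7.07 and 7.05 in controls 1 to 4. All mutants lay above all controls, and the difference was 0.36 ± 0.06 (SE; limma, adjusted p = 0.0197). Its second probe set gave a difference of 0.15, and its call held in 14 of 23 alternatives.

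The 18 remaining neighbours had differences of −0.09 to 0.13, and the lowest adjusted p among them was 0.654 by limma. The median difference over the 20 was 0.01, as over all genes. The places directly beyond Dcxr were those of Rac3, which encodes a small GTPase, and of Lrrc45, with log2 differences of −0.09 ± 0.07 and −0.03 ± 0.06 (SE). Rac3 ran from 8.76 to 8.88 in mutants and from 8.81 to 9.04 in controls. On the other side of Cbr2 lay Rfng, a glycosyltransferase that modifies Notch receptors, Gps1, a subunit of the COP9 signalosome, and Dus1l, with −0.04 ± 0.07, −0.05 ± 0.06 and −0.07 ± 0.08 (SE).

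**Figure D2:**
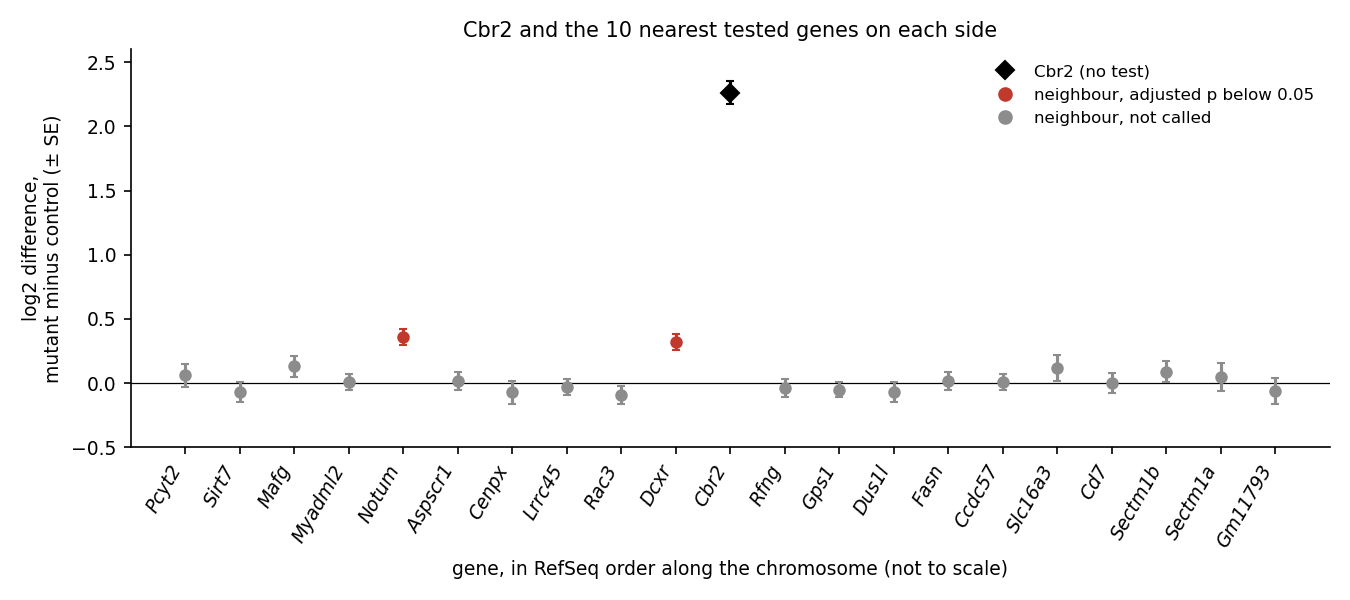
Log2 difference, mutant minus control, with its SE, of Cbr2 and of the 10 nearest tested genes on each side, in RefSeq order along the chromosome and not to scale. Cbr2 stands at 2.26, Dcxr and Notum at 0.32 and 0.36, and the other 18 genes between −0.09 and 0.13.

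The surroundings of the relatives gave a single call. Of 10 genes around Cbr1 and Cbr3 on chromosome 16, 5 on each side, 1 rose and 0 fell, against 0.604% and 0.248% of all genes. It was the farthest on its side, Runx1, a transcription factor of blood formation, with a log2 difference of 0.52 ± 0.08 (SE) and an adjusted p of 0.0122 by limma, a call that held in 19 of 24 alternatives. Runx1 had 8.64, 8.53, 8.75 and 8.68 in mutants 1 to 4 and 8.0, 8.02, 8.19 and 8.30 in controls 1 to 4, without overlap. Of 10 genes around Cbr4 on chromosome 8, 0 passed.

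The enzymes that share the superfamily or the chemistry of the members mostly did not pass. The same holds for genes at large, of which 0.852% passed in either direction. Of 56 measured short-chain dehydrogenases/reductases outside the 5 members, 0 rose and 0 fell. Their differences ran from −0.18 to 0.21 with a median of −0.02, against 0.01 over all genes. Among those with the highest values, Dhrs1 had a log2 difference of 0.04 ± 0.08 (SE) and Nsdhl, an enzyme of cholesterol synthesis, −0.15 ± 0.09 (SE). Far1, which makes fatty alcohols, and Hsd17b10, a mitochondrial dehydrogenase, had −0.05 and −0.03.

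Of 33 measured aldo-keto reductases and aldehyde dehydrogenases, 0 rose and 1 fell, against 0.604% and 0.248% of all genes, with a median difference of 0.00. It was Aldh1a7, an aldehyde dehydrogenase close to Aldh1a1. It had 9.44, 9.59, 9.49 and 9.62 in mutants 1 to 4, against 10.08, 10.11, 10.28 and 10.38 in controls 1 to 4. All mutants lay below all controls, and Aldh1a7 fell by 0.68 ± 0.08 (SE) on the log2 scale (limma, adjusted p = 0.00247). Aldh1a1 itself, named after its values were seen, ran from 8.88 to 8.93 in mutants and from 9.14 to 10.05 in controls. Its difference of −0.57 ± 0.17 (SE) missed the threshold (adjusted p = 0.239 by limma). Both genes are close relatives, and sharing of signal between their probes was not tested. Mutants were lower without overlap for 5 of the 33 genes and higher without overlap for 0, against 3.6% and 4.48% of all genes. The 3 besides Aldh1a7 and Aldh1a1 were Aldh3a2, Aldh5a1 and Aldh16a1, named after their values were seen, with −0.10, −0.16 and −0.14. Akr1a1, the aldehyde reductase with the highest values of the list, had a difference of −0.06.

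In the glucuronate-xylulose pathway around Dcxr, 0 of 11 measured genes passed, against 0.852% of all genes, with a median difference of −0.02. Ugdh and Ugp2, which make UDP-glucuronate from glucose, had −0.03 and −0.11. Akr1a1, which reduces glucuronate, had −0.06, and Gusb, the lysosomal beta-glucuronidase, had −0.02. Fggy, a kinase of ribulose and named after its values were seen, ran from 6.82 to 7.43 in mutants and from 6.39 to 6.62 in controls. Its log2 difference was 0.57 ± 0.13 (SE) without overlap (adjusted p = 0.0939 by limma).

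In human cells CBR1 and CBR3 are known as targets of NRF2, the transcription factor of the antioxidant response. Of 27 measured NRF2-regulated genes, 1 rose and 0 fell, against 0.604% and 0.248% of all genes, with a median difference of −0.02. It was Ephx1, which encodes microsomal epoxide hydrolase. Ephx1 had 7.82, 7.75, 7.96 and 8.0 in mutants 1 to 4 and 6.99, 7.04, 7.32 and 7.34 in controls 1 to 4. The groups were separate, and the difference was 0.71 ± 0.10 (SE; limma, adjusted p = 0.00487), a call that held in 21 of 23 alternatives. Nfe2l2, the gene of NRF2 itself, had 0.11 and did not pass. Mutants were higher without overlap for 4 of the 27 genes and lower without overlap for 2, against 4.48% and 3.6% of all genes. Those that did not pass are named here after their values were seen. Gsta4, a glutathione transferase, had −0.54 ± 0.12 and Gsr, glutathione reductase, −0.40 ± 0.10 (SE; limma, adjusted p = 0.0909 and 0.136). Abcc4, an exporter of organic anions, Srxn1, sulfiredoxin, and Gclc, which makes the glutathione precursor, had 0.23, 0.13 and 0.08.

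**Figure D3:**
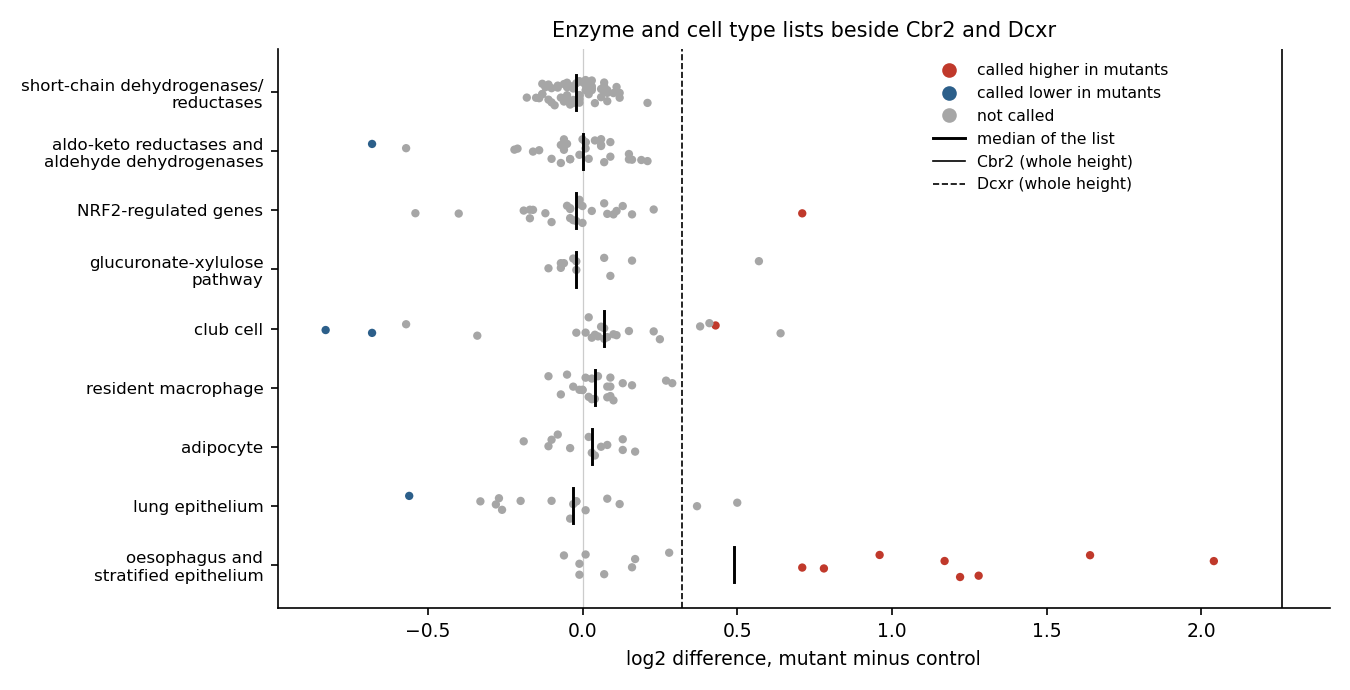
Log2 differences, mutant minus control, of the genes of 9 lists, 1 point per gene and 1 row per list, with the list's median as a short bar. Lines over the whole height mark Cbr2 at 2.26 and Dcxr at 0.32. The short-chain dehydrogenases/reductases lie between −0.18 and 0.21, and the called genes lie mostly among the oesophagus and stratified epithelium markers. All lists were written with earlier results of these data known.

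Cbr2 is also used as a marker of club cells, of some tissue macrophages and of adipocytes, so markers of these cells were read beside it. Of 23 measured club cell markers other than Cbr2, 1 rose, 2 fell and 20 did not pass, with a median difference of 0.07. Over all genes 0.604% rose and 0.248% fell. Lypd2 rose by 0.43 ± 0.08 (SE; limma, adjusted p = 0.0321), and it passed in 14 of 23 alternatives. Cckar, a cholecystokinin receptor, fell by 0.83 ± 0.13 (SE; limma, adjusted p = 0.0118), a call that held in 21 of 24 alternatives, and Aldh1a7 fell by 0.68. The mean log2 value of the list was 7.07 to 7.25 over the mutants and 7.02 to 7.26 over the controls. Mutants were higher without overlap for 5 of the 23 markers and lower without overlap for 4, against 4.48% and 3.6% of all genes. Those that did not pass are named after their values were seen. Cyp2f2, a cytochrome P450 of club cells, had 0.64 ± 0.16 (SE; limma, adjusted p = 0.136), and its r with Cbr2 over the 8 arrays was 0.83. Hp, haptoglobin, had 0.41, Gabrp, a GABA receptor subunit, 0.38, and Nupr1, a stress-induced nuclear protein, 0.25. Lower without overlap were Aldh1a1 with −0.57 and Cldn10, a claudin, with −0.34. The part of these markers in the Cbr2 values was not tested. The defining secretoglobins Scgb1a1 and Scgb3a2, also named after their values were seen, had differences of 0.01 ± 0.08 and 0.06 ± 0.13 (SE). Scgb1a1 stood at log2 4.64 ± 0.10 in mutants and 4.63 ± 0.15 in controls (SD, n = 4 each). This is far below the array medians of 7.05 to 7.12, so its small difference says little about club cells.

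Of 23 resident macrophage markers 0 passed, where 0.852% of all genes did. The list mean was 8.22 to 8.36 over the mutants and 8.13 to 8.28 over the controls. Lyve1, a hyaluronan receptor, and Stab1, a scavenger receptor, had differences of −0.11 and 0.16. Gas6 and Maf had 0.29 and 0.27 without overlap and adjusted p-values of 0.226 and 0.147 by limma. Mutants were higher without overlap for 2 of the 23 markers and lower without overlap for 0, against 4.48% and 3.6% of all genes. The part of macrophage markers in the Cbr2 values was not tested. Of 13 measured adipocyte markers 0 passed, against the same share of all genes. The list mean was 6.81 to 6.88 over the mutants and 6.79 to 6.88 over the controls. Lpl, lipoprotein lipase, and Pparg, the adipocyte regulator, had differences of −0.11 and 0.04. Adipoq, the gene of adiponectin, named after its values were seen, stood at 5.13 ± 0.09 in mutants and 5.10 ± 0.11 in controls (SD, n = 4 each). These values also lay below the array medians of 7.05 to 7.12, where a small difference says little.

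Most lung epithelium markers stood well above the array medians of 7.05 to 7.12 in both genotypes. The lowest was Shh, named after its values were seen, with means of 7.14 in mutants and 7.43 in controls. Of the 16 markers, 0 rose, 1 fell and 15 did not pass, where 0.604% of all genes rose and 0.248% fell. Their median difference was −0.03. The list mean was 10.24 to 10.32 over the mutants and 10.23 to 10.43 over the controls. Nkx2-1, the lung regulator, named after its values were seen, stood at 10.74 ± 0.11 in mutants and 10.79 ± 0.10 in controls (SD, n = 4 each), and Sftpc, surfactant protein C, at 12.93 in mutants and 12.85 in controls. The gene that fell was Foxa1, an endoderm transcription factor, by 0.56 ± 0.06 (SE; limma, adjusted p = 0.00107). Mutants were lower without overlap for 5 of the 16 markers and higher without overlap for 0, against 3.6% and 4.48% of all genes. Besides Foxa1 these were Etv5, a transcription factor of the growing tips, with −0.33 ± 0.07 (SE; limma, adjusted p = 0.0611), Shh with −0.28, the adhesion molecule Epcam with −0.26 and Foxa2 with −0.20, named after their values were seen. Of the 16 markers 5 had a positive difference. Bmp4 and Id2 had 0.37 ± 0.13 (SE; limma, adjusted p = 0.368) and 0.12. The keratin gene Krt19, named after its values were seen, had 0.50 ± 0.15 (SE; limma, adjusted p = 0.24). For these 3 the groups overlapped. Of 16 measured markers of oesophagus and stratified epithelium 8 rose and 0 fell, against 0.604% and 0.248% of all genes, with a median difference of 0.49. This list was written with earlier results of these data known, so its counts and means cannot be read as independent of them. The list mean was 7.32 to 7.43 over the mutants and 6.71 to 6.79 over the controls, without overlap. Krt15, Krt4 and Krt17, which encode keratins, rose by 2.04, 1.22 and 1.17, Anxa8, an annexin, by 1.64, Dapl1 by 1.28 and Perp, a desmosome protein, by 0.96. Pax9 and Trp63, transcription factors of these epithelia, rose by 0.78 and 0.71. The call of Krt17 held in 21 of 23 alternatives. The other 8 did not pass and are named after their values were seen. Klf5 had 0.28 without overlap. Krt13, Krt14, Sprr3, Krtdap and Dsg3 had −0.01, −0.06, −0.01, 0.01 and 0.07, and Sox21 and Pitx1 had 0.17 and 0.16. Whether the 8 markers that rose have a part in the Cbr2 values was not tested.

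Over the 8 arrays the genes whose pattern was most like that of Cbr2, by Pearson's r, were Zmat3 (0.994), Porcn (0.992), Slc15a1 (0.992), Cdkn1a (0.991) and Dglucy (0.990), among 18664 genes eligible. All correlations rest on the same 8 arrays and mainly on the gap between the genotypes, and are given as descriptions. Zmat3, an RNA-binding protein and target of p53, had 9.08, 8.88, 9.05 and 8.93 in mutants 1 to 4 and 8.29, 8.20, 8.11 and 8.10 in controls 1 to 4. Both Zmat3 and Cbr2 were highest in mutant 1 and, among the mutants, lowest in mutant 2, an order that choosing by r favours. Cdkn1a, the gene of p21, which blocks cyclin-dependent kinases, had 10.58, 10.43, 10.72 and 10.62 in mutants 1 to 4 and 8.23, 8.37, 8.33 and 8.47 in controls 1 to 4. Slc15a1, a peptide transporter, rose by 1.03, Dglucy, the D-glutamate cyclase, by 1.34 and Porcn, which acylates WNT proteins, by 0.34 on the log2 scale. Cdkn1a and Slc15a1 were highest in mutant 3, and Dglucy and Porcn in mutant 1. Control 1, the highest control for Cbr2 and Zmat3, was the lowest for Cdkn1a and Dglucy. The call of Porcn held in 17 of 24 alternatives.

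The genes most opposite to Cbr2 were Tinag (−0.997), Lyplal1 (−0.993), Olfr847 (−0.993), Cadm1 (−0.990) and Itih2 (−0.987). Tinag, a basement membrane protein, had 8.88, 9.01, 8.85 and 8.8 in mutants 1 to 4, against 9.92, 10.07, 10.09 and 10.14 in controls 1 to 4. Tinag, Lyplal1, Cadm1, an adhesion molecule, and Itih2, an inter-alpha-trypsin inhibitor chain, fell by 1.17, 0.39, 0.48 and 0.63, and the call of Lyplal1 held in 21 of 24 alternatives. Olfr847, an olfactory receptor at 4.24 to 4.28 in mutants and 4.4 to 4.44 in controls, did not pass. Of the members, Dcxr had an r of 0.95 with Cbr2, in place 73 among the eligible genes. Notum had 0.94, in place 92. Cbr1 and Cbr4 had 0.23 and 0.21, and Cbr3 had −0.73.

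**Figure D4:**
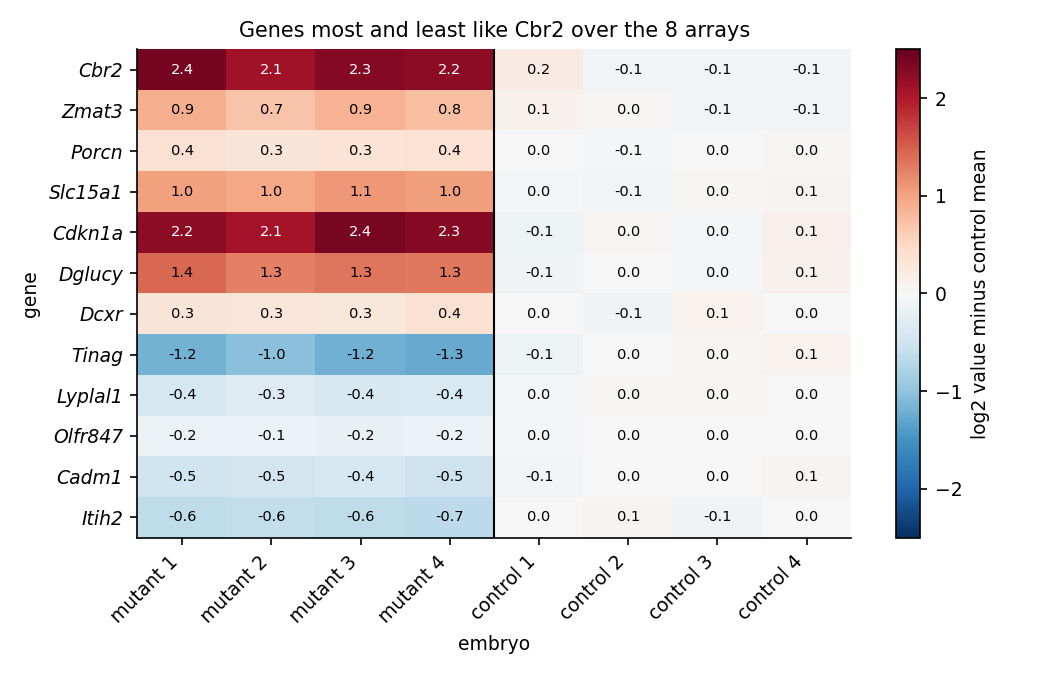
Log2 value minus the control mean, coloured and printed, for Cbr2, the 5 genes most like it, Dcxr, and the 5 genes most opposite to it by Pearson's r, in each of the 8 embryos, mutants left and controls right. Cbr2 stands at 2.10 to 2.39 in the mutants, and Dcxr at 0.28 to 0.39.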

How the data were processed

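Whole lungs of 8 embryos were measured on 1-colour Affymetrix arrays, 1 array per embryo. The deposited log2 values, 1 per probe set, were made by the authors with RMA in the package oligo, per the submitters' processing notes, with its version and options not given in the sources used here. The method makes arrays alike in distribution and draws changes of dim genes towards 0, and the table holds no detection calls. Precision is limited by the number of arrays.

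The platform annotation, which can be old, named 1 gene for 23521 of 41345 probe sets and several for 1814, and did not list 16010. By gene number 23328 single names matched RefSeq (GRCm38.p6), which updated 0 symbols and gave the order of neighbouring genes. The value table names no build, so gene positions are not printed. The array medians were 7.05 to 7.12 and 0 pairs of arrays were identical. Whether the Ezh2 probes lie in the floxed part is not known here.

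Each gene was fitted with limma 3.58.1 in R 4.3.3, with a genotype term and a random litter effect (litters as in the deposited design text, correlation 0.153). Variances were moderated by eBayes, and two-sided p-values were adjusted by Benjamini-Hochberg across 22180 genes, at a threshold of 0.05. In all, 2189 genes had an unadjusted p under 0.05. The fit was tested on simulated data. Each litter held a single genotype, so litter could not be a fixed block. Replicate numbers do not pair the embryos, since same-numbered embryos come from different litters.

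Named genes are the members, the neighbours of Cbr2 within 3 places and any called neighbour, in each list the called genes or the brightest up to 4, and the genes most and least like Cbr2 (predicted models, clones, small RNAs, Xist, Tsix and Y-linked genes left out). Exceptions are said to be named after their values were seen. The members and lists were chosen with earlier results of these data known. Marker Krt5 was not analysed here. Alternatives covered litters, embryos left out, dim genes, scaling, probe sets, variance prior, array weights and the Xist level. Plots used matplotlib 3.10.9 under Python 3.11.15.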

Additional observations from a re-analysis of the deposited data

Results flagged for a closer look

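For each gene that the naming rule selects, the 4 values of a genotype were checked for an embryo far from the other 3. There were 8 such cases among 120, and about 1 in 20, or 6.0, arise by chance. Among the members this was Cbr2 alone, for which control 1 was the highest control at 7.99. Of the other selected genes, mutant 4 was the lowest mutant for Anxa8 (7.66), mutant 2 for Id2 (12.33) and mutant 3 for Krt15 (8.45), and mutant 3 was the highest for Lipe (7.61). Control 3 was the highest control for Dapl1 (7.43) and Dus1l (8.94), and control 4 for Maf (9.57).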

How the results depend on the processing

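The Cbr2 difference was 2.18 to 2.33 over 24 alternatives, of which the restriction to embryos with a high Xist value was added after seeing the data. No value of Cbr2, of its excess over Dcxr or of Cbr3 changed direction. For Cbr2 and its excess, that direction rests on the contrast for which Cbr2 was chosen. Dcxr kept its direction, but its call was lost at a difference of 0.32 with litter means and with the replicate block, 0.28, 0.34 and 0.31 without litters 1, 3 and 4, 0.29 with median-centred arrays and 0.30 in embryos with a high Xist value, and leaving out single embryos gave 0.30 to 0.35. Near 0, the sign changed for Cbr1 without litter 1 (−0.0035) and with its second probe set (−0.04), and for Cbr4 without litter 1 (−0.04), without litter 3 (−0.01) and in embryos with a high Xist value (−0.05). Of the 20 neighbours of Cbr2, 0 to 2 were called higher without single embryos, 0 with litter means, without litter 1, without litter 4 or with high Xist only, and 1 with the replicate block, without litter 2, without litter 3, above the median level, with median-centred arrays and with either other treatment of probe sets.

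Over all genes, 134 were higher and 55 lower. The counts were 65 and 33 with litter means, 75 and 23 without litter 4, 221 and 105 with array weights, 361 and 313 with Xist as a covariate, and 79 higher in embryos with a high Xist value. Lower counts also moved to 95 without the litter block, 90 without litter 1 and 91 with quantile normalization. Without single embryos they ran from 73 to 157 higher and from 28 to 75 lower. Of the 213 genes of the lists, 10 were higher and 3 lower. These became 4 higher above the median level, and 5, 6, 5 and 10 lower without the litter block, with the trended prior, with array weights and with the Xist covariate, while leaving out single embryos gave 9 to 12 higher and 3 to 5 lower, and leaving out single litters 8 to 13 higher and 2 to 4 lower. Fewer genes were tested above the median level. The cause of the other shifts was not tested. With the replicate block 140 genes were higher and 55 lower. The deviations of same-numbered embryos correlated at −0.27 to 0.03, and those of the other pairings at −0.22 to 0.38. Such correlations cannot exclude shared handling. By litter, the numbers pair no embryos.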
